A study of Rattus norvegicus with 18 samples.

Results

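The NF-kB subunits and the feedback genes of their pathway were described here in rat soleus muscle through 9 genes, namely the subunits Nfkb1, Nfkb2, Rela and Relb, the inhibitor and cofactor genes Nfkbia and Bcl3, the ubiquitin-editing genes Tnfaip3 and Rnf31, and the cytokine Tnf. A probe set (a group of short probes that an Affymetrix array reads together as 1 value) was taken where the annotation gave it exactly 1 of these symbols. This found 12 of 31042 probe sets, and the 9 genes were 9 of 14217 genes with a probe set of their own. Bcl3 had 3 probe sets and Tnf had 2, and the brightest probe set on average stood for its gene.

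NF-kB is a family of transcription factors that pair up and, in resting cells, are held in the cytoplasm by inhibitor proteins of the IkB family. Signals from receptors for tumour necrosis factor, interleukin-1 and microbial products activate a kinase complex that marks the inhibitor for destruction, and the freed factors enter the nucleus and switch on inflammatory genes. Several of those genes encode the pathway's own subunits and brakes, so that the response feeds back on itself. In skeletal muscle the pathway is known from inflammation, wasting and injury.

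The arrays came from 9 male rats. In 5 rats 5/6 of the renal mass had been removed (SNX, a model of chronic kidney disease), and 4 rats had a sham operation. At 8 weeks after that operation all 9 rats had the right femoral artery tied off and resected, and both soleus muscles were taken 24 hours later. The groups were the right limb of SNX rats (n = 5), the left limb of the same SNX rats (n = 5), the right limb of sham rats (n = 4) and the left limb of the same sham rats (n = 4), with 1 array per limb made from 2 micrograms of total RNA. The left limb, whose artery was not ligated, belongs to an animal whose other limb was ischemic, so it is not muscle of an untouched rat. No rat without ligation was analysed here. The labels give no strain, age or batch. They call both limbs of every sham rat nonischemic and both limbs of every SNX rat ischemic, which conflicts with the design text, so groups are named here by operation and side. Rats are given by the numbers in the labels, which are SNX rats 12, 18, 20, 37 and 49 and sham rats 11, 13, 15 and 17.

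Values are the authors' normalized log2 levels, in which a difference of 1 is a 2-fold difference. They are set side by side between arrays for 1 probe set and not between probe sets. Array medians ran from 3.23 to 3.38. The mean log2 level of fibre markers was between 11.1 and 14.9 for the slow fibre list and between 14.6 and 15.0 for the fast fibre list. The slow fibre list was uneven between limbs. In SNX rat 20 it was 11.1 on the right and 13.2 on the left, and in sham rat 17 it was 13.3 and 12.1. The part of fibre make-up in the results was not tested. The arrays of the right limb of sham rat 17 and of SNX rat 49 stood apart. They correlated with the remaining arrays at 0.978 and 0.980 on average, where every other array reached 0.987 to 0.992. Counts and calls that rest on them are given with and without them. These were bulk samples, in which fewer cells of a type and less RNA per cell cannot be told apart.

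Promoters were read from the RefSeq table for the rat build GRCr8, which held 8 of the 9 genes (Relb is named only). The 250 bases upstream of the first listed start were searched for the NF-kB consensus motif, which is GGG, a purine, a pair of any bases, a pair of pyrimidines and CC, on both strands. A match that reads on both strands was counted once. At least 1 match was found in 4 of the 8, namely Nfkb2, Nfkbia, Bcl3 and Tnfaip3, and in 1761 of 27457 genes in the table (6.41%). The 4 windows with a match are shown because they belong to genes that the pathway is known to feed back on, with matches in capitals, 5′ to 3′ along the gene's strand.
Nfkb2 (chr1:255108124-255108373, plus strand): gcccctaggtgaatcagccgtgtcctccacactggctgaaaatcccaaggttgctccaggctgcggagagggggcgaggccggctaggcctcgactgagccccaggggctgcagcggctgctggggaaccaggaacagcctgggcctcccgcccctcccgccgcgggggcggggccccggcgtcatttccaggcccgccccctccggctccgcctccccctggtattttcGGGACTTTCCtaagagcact
Nfkbia (chr6:78597073-78597322, minus strand): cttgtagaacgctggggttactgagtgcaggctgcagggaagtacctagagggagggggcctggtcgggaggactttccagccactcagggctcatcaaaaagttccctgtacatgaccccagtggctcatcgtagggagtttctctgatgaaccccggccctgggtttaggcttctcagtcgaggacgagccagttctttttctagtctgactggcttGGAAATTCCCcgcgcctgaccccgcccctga
Bcl3 (chr1:88613556-88613805, minus strand): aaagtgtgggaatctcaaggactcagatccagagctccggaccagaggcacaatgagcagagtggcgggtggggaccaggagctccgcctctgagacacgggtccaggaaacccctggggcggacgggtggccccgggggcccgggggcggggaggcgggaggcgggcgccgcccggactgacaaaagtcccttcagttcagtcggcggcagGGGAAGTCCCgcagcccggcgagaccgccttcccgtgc
Tnfaip3 (chr1:15543980-15544229, minus strand): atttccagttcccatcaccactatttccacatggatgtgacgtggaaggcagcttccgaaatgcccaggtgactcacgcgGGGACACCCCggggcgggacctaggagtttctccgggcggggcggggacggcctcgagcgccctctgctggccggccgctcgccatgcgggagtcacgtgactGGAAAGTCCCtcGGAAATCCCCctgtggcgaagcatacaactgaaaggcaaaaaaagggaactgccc
Nfkb2 held 1 match, which begins 20 bases upstream of the start. In Nfkbia the match begins 31 bases upstream and reads on the strand opposite to the gene. Bcl3 held 1 match that reads on both strands, 38 bases upstream. The window of Tnfaip3 held 3 matches, 1 on both strands 170 bases upstream and a pair 67 and 55 bases upstream that read on the opposite strand. A match is a description of the letters and no evidence of binding in this muscle, and no binding or methylation was measured.

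The first question was whether the genes differed between the ligated right limb and the left limb. With 1 mean per group fitted by limma and p-values adjusted over all probe sets (Benjamini-Hochberg, threshold 0.05), none of the 9 genes passed over all 9 rats, where 2.55% of all probe sets did. None passed in SNX rats, where 0.0451% of probe sets did, and none in sham rats, where 0.148% did. At an unadjusted p under 0.05, 6 of 9 passed over all rats, 2 of 9 in SNX rats and 4 of 9 in sham rats, against 18.9%, 7.92% and 12.3% of all probe sets. Without the arrays of sham rat 17 right and SNX rat 49 right these counts were 3 of 9 over all rats (Nfkb2, Bcl3 and Rnf31), 0 of 9 in SNX rats and 3 of 9 in sham rats (Rela, Bcl3 and Rnf31), against 13.8%, 5.73% and 11.7% of all probe sets. Because both limbs came from the same animal, the fit was repeated with the rat as a random block. In that blocked fit Bcl3 rose on the right over all rats and Rnf31 rose on the right in sham rats, against 9.05% and 1.8% of all probe sets past the threshold in the same comparisons. With the rat as a fixed term, neither passed (adjusted p = 0.101 and 0.139).

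**Figure D1:**
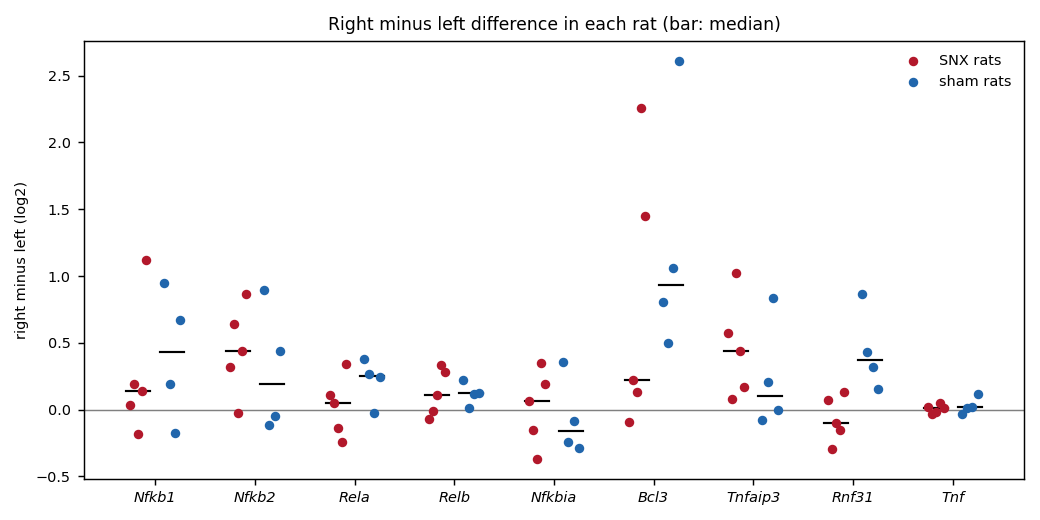
Right minus left log2 difference within each rat, for each of the 9 genes, with SNX rats left of sham rats and a bar at the median. Bcl3 reached 2.61 in sham rat 17 and 2.26 in SNX rat 37, and the points of Rnf31 lie above 0 in 4 of 4 sham rats and in 2 of 5 SNX rats.

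The fitted right minus left difference was above 0 for 8 of 9 genes over all rats, in SNX rats and in sham rats, with Nfkbia (over all rats and in sham rats) and Rnf31 (in SNX rats) as the exceptions. Of all probe sets 34.1%, 41.7% and 31.8% were above 0 in those comparisons. The median difference of the 9 genes was 0.19 over all rats, 0.13 in SNX rats and 0.24 in sham rats, against -0.02, -0.01 and -0.02 for all probe sets. Many dim probe sets enter that background, and among genes with a mean level of at least 5 the shares above 0 were 45.1%, 43.7% and 47%, against 5 of 6 of the genes described here in each comparison. With the pair of arrays that stood apart left out, 8 of 9 were above 0 over all rats, 6 of 9 in SNX rats and 7 of 9 in sham rats, against 33.3%, 39.6% and 31.8% of all probe sets. Among genes with a mean level of at least 5 the same settings gave 5 of 6, 3 of 6 and 5 of 6, against 46.5%, 44.8% and 48.9%. In SNX rats Rela, Nfkbia and Rnf31 were then below 0. No gene was higher on the right in every rat, which 2.85% of probe sets were. Tnfaip3 was the 1 gene of 9 that was higher in every SNX rat (background 6.13%), and Relb, Bcl3 and Rnf31 were the 3 of 9 that were higher in every sham rat (background 8.91%).

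Nfkb1 encodes the precursor of a DNA-binding subunit that lacks an activation domain of its own. Its log2 level was 6.21, 6.20, 5.86, 6.13 and 6.55 in the right limbs of SNX rats 12, 18, 20, 37 and 49, and 6.18, 6.01, 6.04, 5.98 and 5.43 in their left limbs. In the right limbs of sham rats 11, 13, 15 and 17 it was 6.64, 6.59, 6.19 and 6.60, and in their left limbs 5.69, 6.40, 6.36 and 5.93. The right limb was higher in 7 of 9 rats, the groups overlapped, and SNX rat 49 (1.12), sham rat 11 (0.95) and sham rat 17 (0.67) had the largest differences. Over all rats the difference was 0.34 ± 0.13 (SE), with an adjusted p of 0.166 (0.0963 with the block).

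Nfkb2, the precursor of the subunit that works in the non-canonical branch with Relb, had log2 levels of 6.43, 6.08, 6.13, 6.58 and 6.67 in the right limbs of the SNX rats and 6.11, 5.44, 6.15, 6.14 and 5.80 in their left limbs. Sham rats had 6.61, 6.11, 6.06 and 6.53 on the right and 5.71, 6.23, 6.11 and 6.09 on the left. SNX rats were higher on the right in 4 of 5 animals and sham rats in 2 of 4, with overlap in both. The difference over all rats was 0.37 ± 0.13 (SE), or 1.29-fold, and its adjusted p was 0.122 without and 0.0509 with the block. In SNX rats alone it was 0.45 ± 0.17 (adjusted p = 0.509), and in sham rats 0.29 ± 0.19 (adjusted p = 0.522).

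Rela encodes the main activating subunit of the canonical branch. The log2 level in SNX rats was 7.23, 7.21, 7.12, 6.98 and 7.31 on the right and 7.12, 7.16, 7.26, 7.22 and 6.96 on the left. In sham rats it was 7.54, 7.48, 7.19 and 7.46 on the right, against 7.17, 7.21, 7.22 and 7.21 on the left. The 4 left limbs of sham rats lay between 7.17 and 7.22, and 3 of the 4 right limbs lay above them. Right minus left was 0.22 ± 0.08 (SE) in sham rats (adjusted p = 0.288) and 0.02 ± 0.07 in SNX rats (adjusted p = 0.973). The 95% interval in SNX rats ran from -0.13 to 0.18. The change in SNX rats minus that in sham rats was -0.19 ± 0.11 (SE), with a limma adjusted p of 0.999925. The Rela change therefore was not shown to differ between SNX and sham rats.

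Relb, the activating partner of the Nfkb2 product, stayed in a narrow range. Its mean of 3.60 was close to the array medians of 3.23 to 3.38, though it was below the median on 0 of 18 arrays. A narrow range at this level may not reflect a steady transcript. It was 3.55 to 3.83 in the right limbs of SNX rats (median 3.63), 3.44 to 3.70 in their left limbs (median 3.55), 3.51 to 3.76 in the right limbs of sham rats (median 3.64) and 3.39 to 3.58 in their left limbs (median 3.55). The right limb exceeded the left in 3 of 5 SNX rats and 4 of 4 sham rats. The size of that difference was small, 0.12 ± 0.05 (SE) over all rats with an adjusted p of 0.201, and the 95% interval ran from 0.02 to 0.23.

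**Figure D2:**
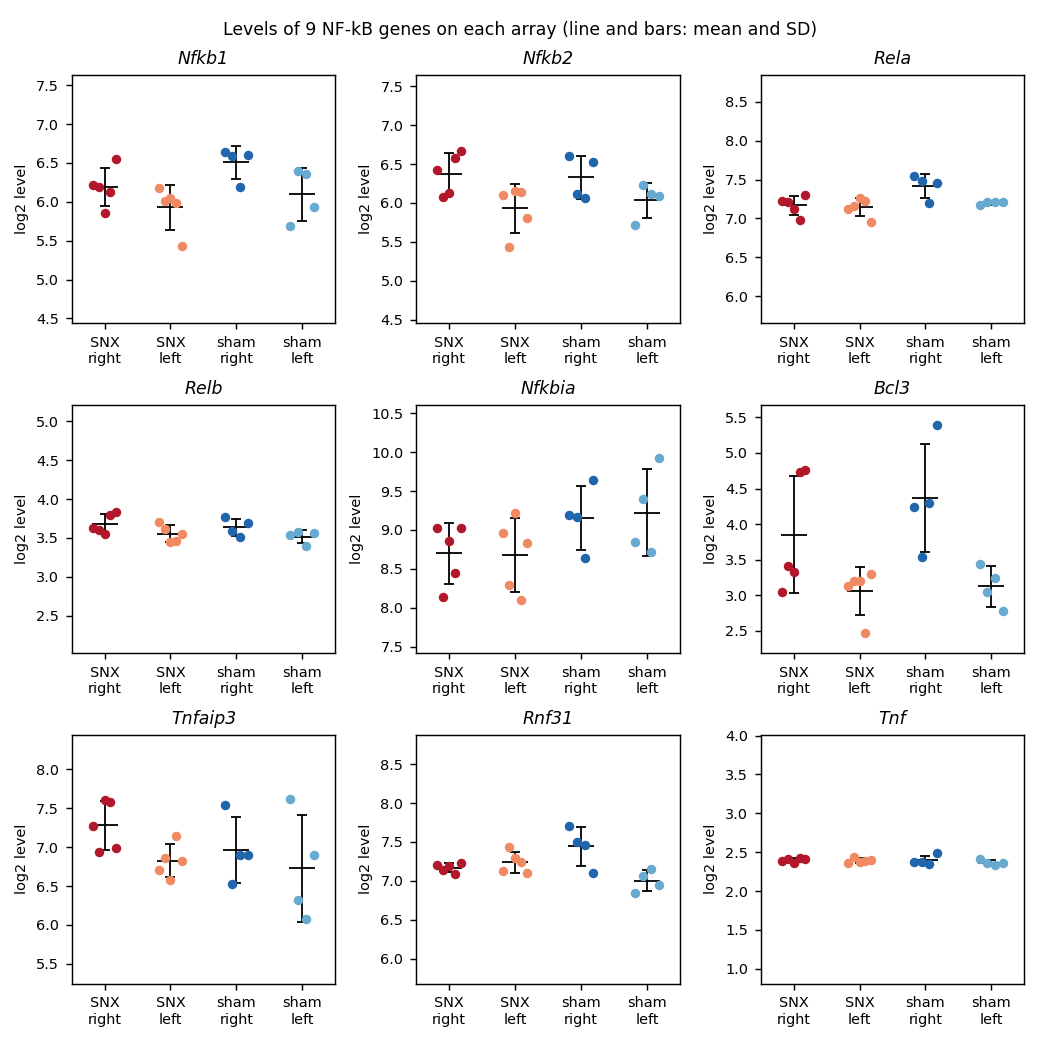
Log2 level of each of the 9 genes on each of the 18 arrays, by group in the order SNX right, SNX left, sham right and sham left, with the group mean and SD. Bcl3 spans 2.47 to 5.39, whereas every Tnf point lies between 2.33 and 2.48, below the median of its array.

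Bcl3 encodes an atypical IkB protein of the nucleus that binds homodimers of the Nfkb1 and Nfkb2 products and can activate or repress with them. Its log2 level in the right limbs of SNX rats 12, 18, 20, 37 and 49 was 3.04, 3.41, 3.33, 4.73 and 4.76, and in their left limbs 3.13, 3.19, 3.20, 2.47 and 3.30. In the right limbs of sham rats 11, 13, 15 and 17 it was 4.24, 3.54, 4.30 and 5.39, and in their left limbs 3.44, 3.04, 3.24 and 2.77. All 4 right limbs of sham rats lay above all 4 left limbs, which 3.24% of probe sets also did. In SNX rats the right limbs of rats 37 and 49 lay far above every left limb, and those of the other 3 rats lay among the left limbs or just above them. The right limb was higher in 8 of 9 rats, the exception being SNX rat 12 (-0.09), and 7.53% of probe sets were higher in at least 8.

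Right minus left for Bcl3 was 1.02 ± 0.28 (SE) over all rats, a 2.03-fold difference, with a limma adjusted p of 0.0639 without the block and 0.0245 with it (SE 0.26). In SNX rats it was 0.79 ± 0.37 (adjusted p = 0.629), and in sham rats 1.24 ± 0.41 (adjusted p = 0.238). Without the arrays of sham rat 17 right and SNX rat 49 right, the difference over all rats was 0.74 ± 0.23 (adjusted p = 0.136, and 0.0722 with the block), so the blocked call rested on them. The blocked call was also lost without both limbs of SNX rat 37, SNX rat 49, sham rat 11 or sham rat 17, with adjusted p-values up to 0.0885, and was kept without any 1 of the other 5 rats. On 7 of 18 arrays the value was below the array's median, and the other pair of Bcl3 probe sets was below it on all 18, with means of 2.03 and 1.21. Those differed by 0.01 ± 0.01 (SE) and -0.0036 ± 0.01 between right and left over all rats, so the Bcl3 result comes from 1 probe set of 3. The mean log2 level of macrophage markers was highest on the arrays of SNX rat 49 right (8.59) and sham rat 17 right (9.23). The same arrays were highest for neutrophil markers (4.29 and 4.51) and T cell markers (3.15 and 3.41). The part of these cells in the Bcl3 result was not tested.

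Nfkbia encodes IkB-alpha, the inhibitor that is destroyed and resynthesised in each round of activation. Its log2 level was 9.03, 8.14, 8.85, 8.45 and 9.02 in the right limbs of SNX rats and 8.96, 8.29, 9.22, 8.09 and 8.83 in their left limbs. It was 9.20, 9.16, 8.63 and 9.64 in the right limbs of sham rats and 8.84, 9.40, 8.72 and 9.93 in their left limbs. Levels spanned 8.09 to 9.93 over the arrays, while the limbs of any 1 rat lay within 0.37 of each other. Right minus left over all rats was -0.02 ± 0.21 (SE, adjusted p = 0.954), with a 95% interval of -0.47 to 0.42. That interval comes from the fit with no block, which does not use the pairing of limbs. The SE was 0.16 with the rat as a random block and 0.09 with the rat as a fixed term.

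Tnfaip3 encodes a ubiquitin-editing enzyme that shuts down signalling upstream of the NF-kB kinase. Its log2 level in SNX rats was 7.28, 6.94, 7.60, 7.59 and 6.99 on the right and 6.70, 6.86, 6.58, 7.15 and 6.82 on the left. In sham rats it was 7.54, 6.52, 6.90 and 6.89 on the right and 7.62, 6.31, 6.07 and 6.90 on the left. The right limb was higher in 5 of 5 SNX rats, by 0.08 to 1.02, and in 2 of 4 sham rats, and sham rat 11 had a high value in both limbs. The 1.02 was that of SNX rat 20, whose right limb had the lowest slow fibre mean, and a link was not tested. Right minus left for Tnfaip3 was 0.46 ± 0.26 (SE) in SNX rats (adjusted p = 0.734) and 0.24 ± 0.29 in sham rats (adjusted p = 0.689). With the rat as a random block the SE was 0.21 (limma adjusted p = 0.381) and 0.23 (adjusted p = 0.534). With the rat as a fixed term it was 0.16 (adjusted p = 0.356) and 0.18 (adjusted p = 0.464). The test of the difference between these changes gave 0.22 ± 0.39 with a 95% interval of -0.61 to 1.05.

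Rnf31 encodes the catalytic subunit of the linear ubiquitin chain assembly complex, which builds the scaffold for kinase activation downstream of the tumour necrosis factor receptor. Its log2 level in SNX rats was 7.20, 7.15, 7.19, 7.09 and 7.23 on the right and 7.13, 7.44, 7.29, 7.24 and 7.10 on the left. In sham rats it was 7.71, 7.50, 7.46 and 7.10 on the right and 6.85, 7.06, 7.15 and 6.95 on the left. The right limbs of sham rats 11, 13 and 15 lay above every left limb, SNX left limbs included, and that of sham rat 17 overlapped the left limbs of sham rats. In SNX rats the limbs overlapped, and 2 of 5 were higher on the right.

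Right minus left for Rnf31 was -0.07 ± 0.09 (SE) in SNX rats (adjusted p = 0.913, 95% interval -0.27 to 0.13). In sham rats it was 0.44 ± 0.11 (SE), or 1.36-fold, with a limma adjusted p of 0.105, and of 0.0328 with the block. Without the arrays of sham rat 17 right and SNX rat 49 right the sham difference was 0.56 ± 0.09, and the call held without the block as well (adjusted p = 0.0188, and 0.00656 with it). With the block and 1 rat left out at a time, the sham call held without SNX rat 20, SNX rat 49 or sham rat 17. It was lost without any 1 of the other 6, with adjusted p-values up to 0.188. Those were sham rats 11, 13 and 15 and SNX rats 12, 18 and 37. SNX rats do not enter the sham difference itself. Leaving 1 of them out changes only the spread estimated over all arrays, the block and the adjustment. The change in SNX rats minus that in sham rats was -0.51 ± 0.14 (SE), with an unadjusted limma p of 0.00257 and an adjusted p of 0.999925 (0.976 with the block). The Rnf31 change therefore was not shown to differ between SNX and sham rats, and no probe set passed that comparison (0% called). At an unadjusted p under 0.05 it was the 1 of 9 that passed, against 1.41% of probe sets.

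Tnf, the cytokine that both activates the pathway and is made by it, had log2 levels of 2.37 to 2.43 in the right limbs of SNX rats, 2.37 to 2.44 in their left limbs, 2.35 to 2.48 in the right limbs of sham rats and 2.33 to 2.41 in their left limbs. Both Tnf probe sets were below the array median on all 18 arrays. Differences at this level are not readable as changes of the transcript, since a dim probe set can hold background alone.

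The second question was how SNX rats differed from sham rats within each limb. None of the 9 genes passed in the right limb, where 0% of probe sets did, and none in the left limb, where 0.00644% did. At an unadjusted p under 0.05, 2 of 9 passed in the right limb (9.25% of probe sets) and 1 of 9 in the left limb (6.25%), and the counts without the pair of arrays that stood apart were also 2 and 1. Those were Rela and Rnf31 in the right limb and Rnf31 in the left limb.

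In the right limb Rela averaged 7.17 ± 0.12 in SNX rats (SD, n = 5) and 7.42 ± 0.15 in sham rats (SD, n = 4). The difference was -0.25 ± 0.08 (SE), with a limma adjusted p of 0.498. Rnf31 averaged 7.17 ± 0.06 in the right limb of SNX rats and 7.44 ± 0.25 in that of sham rats, and the difference was -0.27 ± 0.10 (adjusted p = 0.498). In the left limb the sign was the other one for Rnf31, with 7.24 ± 0.14 in SNX rats and 7.00 ± 0.13 in sham rats, a difference of 0.24 ± 0.10 (adjusted p = 0.735). The groups overlapped for Rela in the right limb and for Rnf31 in both limbs.

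Nfkbia averaged 8.70 ± 0.39 in the right limb of SNX rats and 9.16 ± 0.41 in that of sham rats, and 8.68 ± 0.47 and 9.22 ± 0.56 in the left limbs. The difference was -0.46 ± 0.30 (SE, adjusted p = 0.499) on the right and -0.54 ± 0.30 (adjusted p = 0.862) on the left, with 95% intervals of -1.09 to 0.17 and -1.18 to 0.09. Bcl3 differed by -0.51 ± 0.39 on the right and -0.06 ± 0.39 on the left, intervals that span -1.35 to 0.32 and -0.90 to 0.77. The Bcl3 interval on the right includes a level 2-fold lower in SNX rats. The right minus left change of Bcl3 in SNX rats minus that in sham rats was -0.45 ± 0.56 (SE), with a 95% interval of -1.63 to 0.73. Nfkb1 was -0.32 ± 0.18 (SE) on the right and -0.17 ± 0.18 on the left in SNX minus sham rats, and Tnfaip3 was 0.31 ± 0.28 and 0.10 ± 0.28. Nfkb2 and Relb lay closer to 0, between -0.11 and 0.05 in both limbs. The median difference of the 9 genes was -0.25 on the right and -0.06 on the left, against 0.03 and 0.01 for all probe sets.

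**Figure D3:**
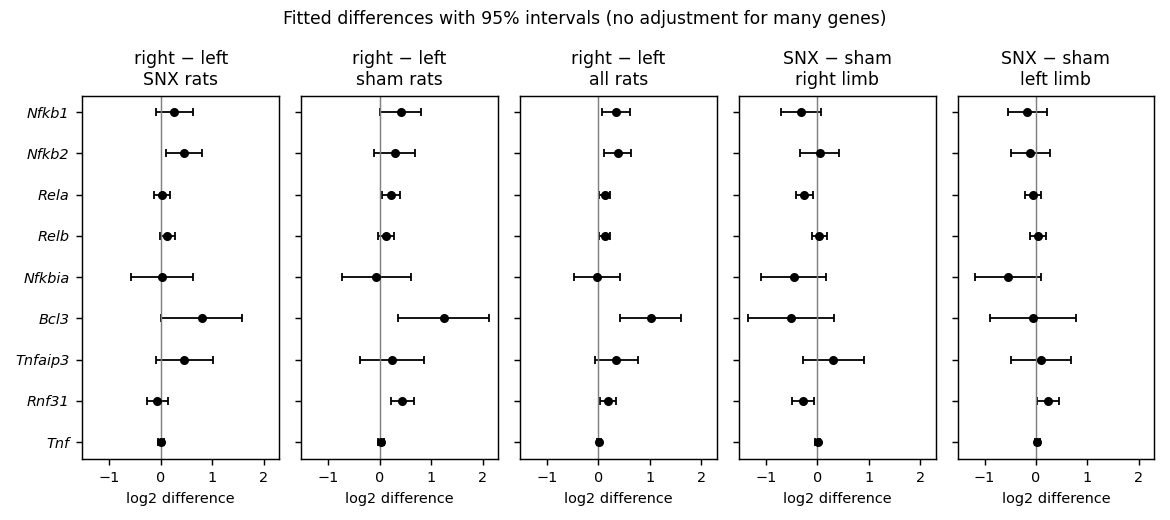
Fitted log2 differences of the 9 genes with 95% intervals, in 5 panels for right minus left in SNX, sham and all rats and for SNX minus sham in the right and left limb. The intervals of Bcl3 are wide, for example 0.43 to 1.61 for right minus left over all rats, whereas the Tnf interval in the same comparison is -0.02 to 0.06. Tnf was below the array median on all 18 arrays, so its narrow interval is not readable as a steady transcript.

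Macrophage markers were also higher on the right on average. The mean log2 level of 13 macrophage markers (of 14 listed) was 5.64 to 8.59 in the right limbs of SNX rats, 5.28 to 5.83 in their left limbs, 6.67 to 9.23 in the right limbs of sham rats and 5.85 to 6.75 in their left limbs. The highest values were those of the right limbs of SNX rat 49 (8.59) and sham rat 17 (9.23), which also held the highest Bcl3 values of their groups. Neutrophil and T cell markers were highest on the same arrays, and correlations are given for the macrophage list only. Right against left over all rats, 2 of the 13 rose (1.55% of all probe sets did), and 9 with the block (4.56%), with a median difference of 1.35. Without those arrays 1 of the 13 rose, which was Cd14 (1.43% of all probe sets), and 5 with the block (3.56%), and the median was 0.66. Over the 18 arrays, which share rats and sides, that mean correlated with Bcl3 at r = 0.78, with Nfkb1 at 0.69, with Nfkb2 at 0.62, with Rela at 0.56 and with Relb at 0.50. For Nfkbia and Tnf r was 0.42 and 0.43, and for Rnf31 and Tnfaip3 the values were 0.05 and -0.07. Over the 16 arrays without that pair, r was 0.48 for Bcl3, 0.63 for Nfkb1, 0.46 for Nfkb2, 0.46 for Rela, 0.26 for Relb, 0.23 for Rnf31 and -0.09 for Tnfaip3. It was then 0.28 for Nfkbia and -0.14 for Tnf, whose probe sets were below the array median on every array.

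Neutrophil markers had a median of their mean log2 level of 3.33 in the right limbs of SNX rats and 3.16 in their left limbs, and of 3.45 in the right limbs of sham rats and 3.22 in their left limbs. None of the 6 passed, and the median difference was 0.23, or -0.02 without the pair of arrays that stood apart. The mean of 7 T cell markers was 2.44 to 3.15 on the right and 2.44 to 2.53 on the left in SNX rats. In sham rats it was 2.41 to 3.41 on the right and 2.43 to 2.50 on the left. The mean of 3 B cell markers lay between 2.23 and 2.28 in all 4 groups. The mean of 8 fibroblast markers was 11.0 to 11.6 in the right limbs of SNX rats, 10.1 to 11.1 in their left limbs, 11.0 to 12.1 in the right limbs of sham rats and 10.9 to 11.9 in their left limbs. None of those passed without the block and Postn rose with it, and their median difference was 0.51, or 0.36 without the pair. The mean of 7 endothelial markers was 7.57 to 7.85 on the right and 7.33 to 7.95 on the left in SNX rats, and 7.74 to 8.53 on the right and 7.57 to 8.12 on the left in sham rats. Kdr and Pecam1 rose, and Tek fell with the block, with a median of 0.24 for the list. Without the pair 1 rose, and with the block added 3 rose and 1 fell, with a median of 0.34 in both fits. The part of any of these cells in the results was not tested.

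**Figure D4:**
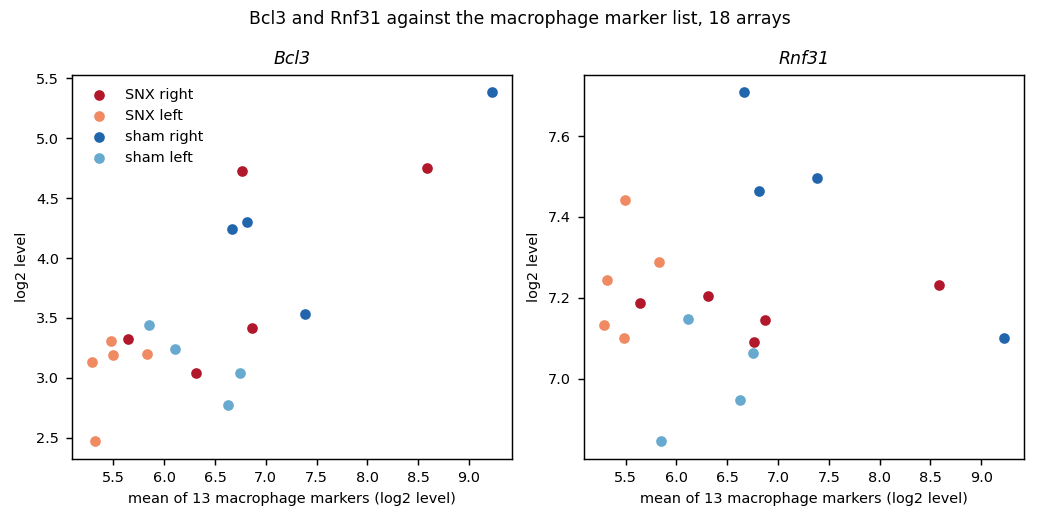
Log2 level of Bcl3 (left panel) and Rnf31 (right panel) against the mean log2 level of 13 macrophage markers, 1 point per array, marked by group. The correlation is 0.78 for Bcl3 and 0.05 for Rnf31 over 18 arrays, and the points furthest right are the right limbs of sham rat 17 and SNX rat 49.

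Other genes of the pathway were taken from 5 lists of 62 genes, of which 56 had a probe set with 1 symbol (Rel, Nfkbie, Ikbkg, Ikbke, Otulin and Tnip3 were not analysed here). Over all rats 9 of the 56 rose on the right and 0 fell, against 1.55% of all probe sets that rose. With the block 15 rose, against 4.56%. The median right minus left difference of the 56 was 0.21, against -0.01 for all genes. Without the arrays of sham rat 17 right and SNX rat 49 right 8 rose, of which 5 were among the 9. Of all probe sets 1.43% then rose, and the median of the 56 was 0.17. Nfkbiz, Il1b and Il6 passed only then in the fit with no block. With the block 16 then rose, against 3.56% of all probe sets, and Il1b, Il6, Tnfrsf1b, Tlr2 and Cd83 were not among the 15. Leaving out 1 rat at a time, the count with no block was 2 for SNX rat 37 and 3 for sham rat 11. It was 4 for sham rat 13 and 2 for sham rat 17, and 6 to 9 for each of the others. Of all probe sets 161, 153, 289 and 190 passed in those fits in that order. The others gave 371 to 1007, and all rats together 791. The blocked count was 9 when SNX rat 37 or sham rat 11 was left out. In those fits 1259 and 1204 of all probe sets passed, against 2808 with all rats.

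Of 16 receptors and adaptors, 13 had a difference above 0 and 3 rose, or 5 with the block. Tnfrsf1a, the main receptor of tumour necrosis factor, averaged 8.32 ± 0.45 and 7.59 ± 0.27 in the right and left limbs of SNX rats, and 8.93 ± 0.32 and 7.84 ± 0.20 in those of sham rats (SD). Its difference was 0.91 ± 0.15 (SE), with an adjusted p of 0.00845, and it was higher on the right in 9 of 9 rats. The lymphotoxin receptor Ltbr rose by 0.56 ± 0.12 (adjusted p = 0.025) and the interleukin-1 receptor Il1r1 by 0.94 ± 0.23 (adjusted p = 0.0456). Irak2 and Ripk1, kinases that relay these receptors, rose in the blocked fit, by 0.71 (adjusted p = 0.0388) and 0.75 (adjusted p = 0.0403). Irak2 was dim, at 3.57 ± 0.57 and 3.14 ± 0.35 in the right and left limbs of SNX rats (SD). In sham rats it was 4.47 ± 0.72 and 3.48 ± 0.23. The median of the list was 0.54, and 0.25 without the same pair of arrays. Of these calls only that of Tnfrsf1a (0.76, adjusted p = 0.00731) held without the pair in the fit that made it. Ltbr then had 0.46 (adjusted p = 0.054), Il1r1 0.69 (adjusted p = 0.0748), Irak2 0.58 (adjusted p = 0.0997) and Ripk1 0.54 (adjusted p = 0.0649), though Ltbr (adjusted p = 0.00973) and Il1r1 (adjusted p = 0.0169) passed with the block. With 1 rat left out at a time the call of Tnfrsf1a held in 9 of 9 fits, that of Ltbr in 4, those of Irak2 and Ripk1 in 2 each and that of Il1r1 in 0.

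Among 13 genes of ubiquitin editing 3 rose. Birc2, a ubiquitin ligase at the tumour necrosis factor receptor, rose by 0.90 ± 0.16 (SE, adjusted p = 0.0117), the Tnfaip3 cofactor Tax1bp1 by 0.21 ± 0.04 (adjusted p = 0.0236) and Tnip2, which binds Tnfaip3, by 1.31 ± 0.32 (adjusted p = 0.0452). All 3 were higher on the right in 9 of 9 rats. Without the pair of arrays the calls of Birc2 (0.74, adjusted p = 0.00744) and Tnip2 (0.93, adjusted p = 0.0476) held, and that of Tax1bp1 (0.18, adjusted p = 0.0554) was lost without the block and held with it (adjusted p = 0.0116). With 1 rat left out the calls held in 7 of 9 fits for Birc2, 5 for Tax1bp1 and 2 for Tnip2. Of the other subunits and inhibitors, 0 of 3 passed without the block. Nfkbiz, a second atypical nuclear IkB, rose by 1.17 with it (adjusted p = 0.0227), and averaged 4.02 ± 1.17 and 3.47 ± 0.50 in the right and left limbs of SNX rats, against 5.07 ± 0.77 and 3.29 ± 0.14 in those of sham rats (SD). Medians were 3.53 and 3.62 in the right and left limbs of SNX rats, where the right mean rests on 1 array at 6.09, and 4.86 and 3.34 in those of sham rats. In sham rats the blocked difference was 1.79 (adjusted p = 0.0477), a call kept in 1 of 9 fits with 1 rat left out. It was lost without any 1 of the sham rats. Fits without an SNX rat leave that difference itself unchanged. Without the pair, Nfkbiz passed with no block over all rats (0.73, adjusted p = 0.0373) and in sham rats (1.42, adjusted p = 0.0252). The blocked Nfkbiz difference without the pair was 0.76 over all rats (adjusted p = 0.00726) and 0.09 in SNX rats (adjusted p = 0.956). The change in SNX rats minus that in sham rats was then -1.34 with the block (limma adjusted p = 0.324). The Nfkbiz change therefore was not shown to differ between SNX and sham rats. The blocked call over all rats held in 4 of 9 fits with 1 rat left out. Of 8 kinases 0 passed, and 1 with the block, which was Map3k7 (0.21, adjusted p = 0.0238), a call lost without the pair (0.19, adjusted p = 0.0791) and in 5 of 9 fits with 1 rat left out.

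Of 16 textbook NF-kB targets 3 rose, or 5 with the block, and the median was 0.62 (0.35 without the same pair of arrays). Ccl2, which draws monocytes, averaged 9.24 ± 1.49 and 4.38 ± 0.37 in the right and left limbs of SNX rats, and 10.96 ± 1.33 and 5.22 ± 0.64 in those of sham rats (SD). It rose by 5.30 ± 0.49 (SE, adjusted p = 0.00018), and in SNX rats alone (4.87, adjusted p = 0.0173) and sham rats alone (5.73, adjusted p = 0.0115). Icam1, an adhesion molecule for leukocytes, rose by 1.38 ± 0.28 (adjusted p = 0.0198) and the stress gene Gadd45b by 1.32 ± 0.29 (adjusted p = 0.0295). With the block Vcam1 (0.67) and Ptgs2 (0.58) rose too. Without the pair of arrays Ccl2 (4.71, adjusted p = 2.81e-05) and Icam1 (1.12, adjusted p = 0.0301) kept their calls, as did Vcam1 with the block (0.72, adjusted p = 0.0244). With the pair left out, Il6 gained a call in both fits, and Cd83 gained one with the block only. The blocked call of Ptgs2 was lost (0.47, adjusted p = 0.161), and that of Gadd45b was lost without the block (1.25, adjusted p = 0.0699) and held with it (adjusted p = 0.0238). With 1 rat left out the call of Ccl2 over all rats held in 9 of 9 fits, that of Icam1 in 5, that of Gadd45b in 3, that of Vcam1 in 4 and that of Ptgs2 in 2. None of the 56 genes passed for SNX against sham rats in either limb.

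**Figure D5:**
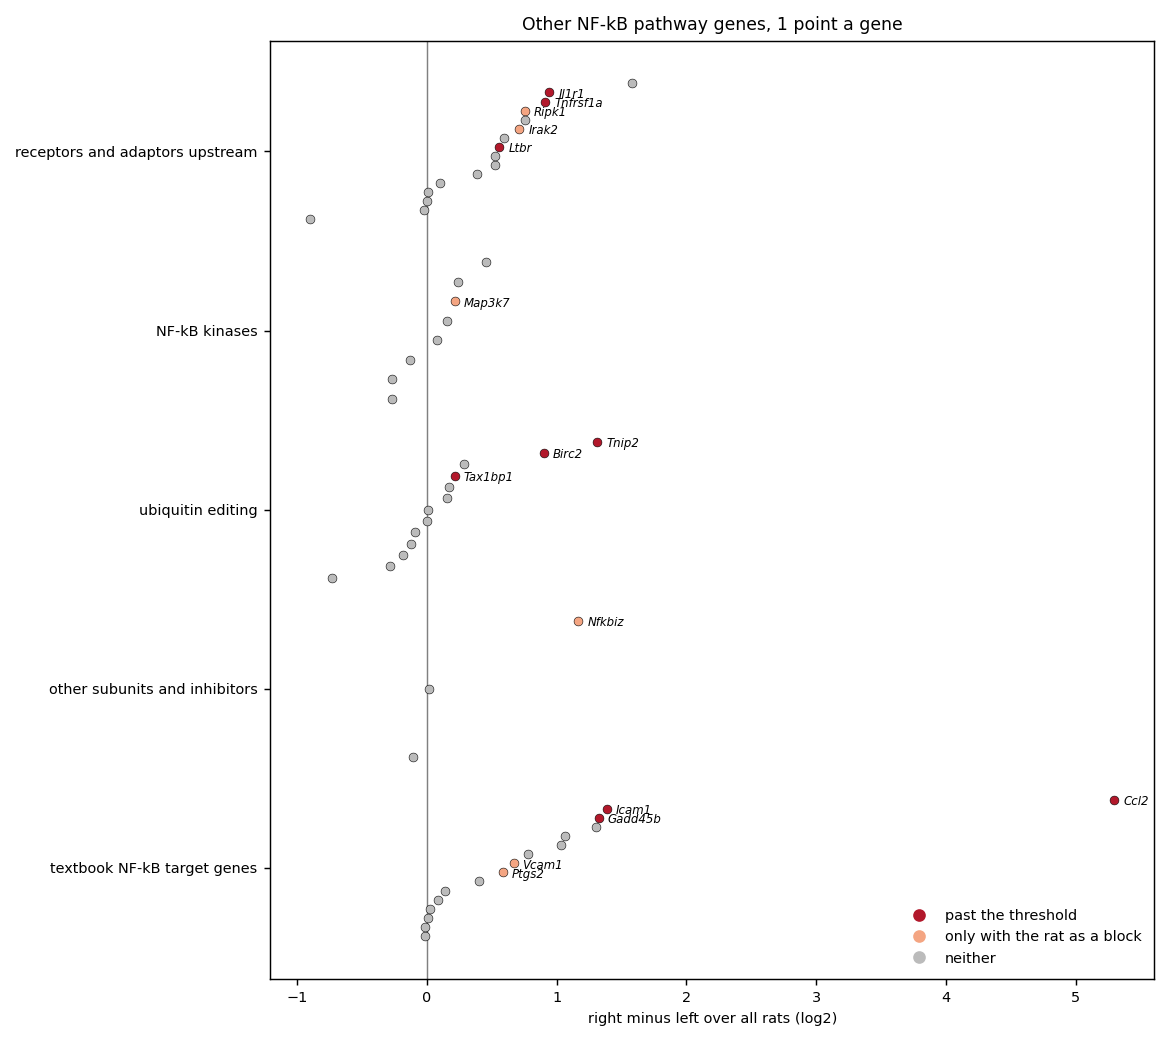
Right minus left log2 differences over all rats for the 56 other pathway genes by list, 1 point a gene, coloured by whether the gene passed without the block, only with it or in neither fit. Ccl2 lies furthest from 0 at 5.30, and the differences of the receptors and targets lie mostly above 0, with list medians of 0.54 and 0.62.

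Genes whose pattern over the 18 arrays was most like each of the 9 were found by Pearson's r among 7771 genes with a mean level of at least 5, as a description over arrays that share rats and sides. The nearest were Taf9 for Nfkb1 (r = 0.94), Hspb1 for Nfkb2 (0.94), Eif4a3 for Rela (0.86), Mybbp1a for Relb (0.87) and Ppp4r2 for Nfkbia (0.87). For Bcl3 they were Rnh1 (0.90), Slc2a1 (0.89) and Il4r (0.89). Tnfaip3 (Wdfy1, 0.79) and Rnf31 (Kat5, 0.78) had no neighbour over 0.80. The nearest for Tnf was Snrpe (0.83), though Tnf was below the array median on all 18 arrays. A probe set that may hold background alone thus reached an r of that size among 7771 candidates. These r values are given over all 18 arrays only, with the pair that stood apart included. Between the 9 genes themselves the highest values were 0.78 for Nfkb1 and Rela, 0.66 for Nfkb1 and Nfkb2 and 0.63 for Relb and Bcl3.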

How the data were processed

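Soleus RNA of 9 rats was measured on 18 arrays. The authors deposited log2 levels that were already normalized. The submitters' processing notes list RMA, GCRMA and Partek without version or role, and the sources used here do not say which made the deposited values. They differ most in dim probe sets. After removal of 57 control probe sets, 31042 were tested. Symbols came from the platform annotation, which can be old, updated through Entrez IDs to RefSeq (GRCr8, 20758 of 20826 probe sets matched). Probe sets with several genes (436) or none (9780) entered the tests without a name.

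Group means were fitted over all 18 arrays with limma 3.58.1 (lmFit, eBayes) in R 4.3.3 (package data.table, version 1.17.8), with 14 residual and 1.02 prior degrees of freedom. Two-sided p-values were adjusted by Benjamini-Hochberg over all probe sets of a comparison, with a threshold of 0.05. Summaries used pandas 2.3.3, numpy 2.4.6 and scipy 1.17.1, and plots matplotlib 3.10.9. The replicate is the rat, since both limbs come from the same animal. As a check of the pairing, in 7 of 9 rats both limbs deviated from their group means with a correlation above 0.1. The block (duplicateCorrelation) had a consensus correlation of 0.297. The fit was tested on simulated data. The values of an array carry no read depth, so the number of arrays limits the precision.

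The text names all 9 genes, every gene of the pathway lists past the threshold in either fit of all arrays, and the nearest genes by correlation. The genes and lists were chosen with earlier results of these data known, so they are not independent evidence. Alternatives were the rat as a random or fixed block, another probe set, centring or quantile scaling, a filter on dim probe sets, leaving out the arrays that stood apart, and leaving out each rat.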

Additional observations from a re-analysis of the deposited data

Results flagged for a closer look

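Among the 36 sets of 4 or 5 arrays (9 genes in 4 groups), 5 held an array far from the rest of its group by Dixon's test, and chance gives about 1 in 20. The lowest Nfkb1 level in the left limbs of SNX rats was 5.43, in rat 49, and the lowest in the right limbs of sham rats was 6.19, in rat 15. Rela was lowest at 7.17 in the left limb of sham rat 11, among left limbs that otherwise lay between 7.21 and 7.22. Bcl3 was lowest at 2.47 in the left limb of SNX rat 37, the rat whose right limb was close to the highest of its group. Tnf was highest at 2.48 in the right limb of sham rat 17, an array that stood apart.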

How the results depend on the processing

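The counts of the 9 genes past the threshold were 0 in all 6 comparisons without the block, and stayed 0 when any 1 rat was left out, after centring arrays on their medians and after quantile scaling. The replicate block, with the rat as a random term, gave 1 in sham rats (Rnf31) and 1 over all rats (Bcl3), and the filter on dim probe sets gave 1 over all rats (Bcl3). Without the pair of arrays that stood apart it was 1 in sham rats (Rnf31), and with the block added, a choice made after seeing the data, 1 in sham rats and 1 over all rats (Rnf31 in both). With the block and 1 rat left out (also chosen after seeing the data), the count ran from 0 to 1 in sham rats and from 0 to 3 over all rats, where Nfkb1 and Rnf31 each passed in 1 of 9 fits and Nfkb2 in 2. The causes were not tested.

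Of all probe sets, 46 passed in sham rats, and the count was 559 with the random block, 117 with the rat as a fixed term, 132 with the dim filter, 183 without the pair of arrays and 972 with the block and without them. In SNX rats 14 passed, against 99, 6 and 32 under the first 3 of these settings and 94 under the last. Over all rats 791 passed, against 2808 with the block, 1789 with the dim filter and 1901 with the block and without the pair. For SNX against sham rats in the left limb 2 passed, 0 after centring or quantile scaling and 8 without the pair, with or without the block. In the right limb 0 passed, 2 with the dim filter, 2 without the pair and 3 with the block added. For the difference of the changes 0 passed, 1 without the pair and 3 with the block added. With 1 rat left out, with or without the block, these counts ran from 0 to 1567 in sham rats, 0 to 147 in SNX rats, 153 to 3305 over all rats, 0 to 12 and 0 to 10 between operations in the left and right limb, and 0 to 2 for the difference.

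Some uncalled log2 differences near 0 changed sign. Without the pair of arrays, and then with the block added, right minus left in SNX rats was -0.011 and -0.027 for Rela and -0.063 and -0.050 for Nfkbia, the difference of the changes was -0.014 and -0.020 for Relb and 0.0063 and 0.0065 for Tnf, and right minus left in sham rats was -0.00072 and -0.00086 for Tnf. The Bcl3 probe set with the lowest mean gave -0.016 in sham rats, -0.0036 over all rats, 0.0060 and 0.030 between operations in the left and right limb and 0.024 for the difference. The Bcl3 probe set with the middle mean gave 0.010 in the right limb and 0.014 for the difference. The dimmer Tnf probe set gave -0.029 in sham rats, -0.0025 over all rats, -0.0022 in the left limb and 0.053 for the difference. Tnf after centring was -0.0086 for right minus left in SNX rats and -0.0079 between operations in the right limb, and -0.023 there after quantile scaling.

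With 1 rat left out, the difference of the changes ran from -0.36 to 0.032 for Nfkb1, -0.044 to 0.058 for Relb, -0.00064 to 0.22 for Nfkbia, -0.82 to 0.0068 for Bcl3 and -0.043 to 0.0087 for Tnf. SNX minus sham in the left limb ran from -0.22 to 0.015 for Nfkb2, -0.0049 to 0.064 for Relb, -0.18 to 0.083 for Bcl3 and -0.12 to 0.39 for Tnfaip3, and in the right limb from -0.039 to 0.14 for Nfkb2 and -0.0084 to 0.036 for Tnf. Right minus left ran from -0.057 to 0.090 for Rela, -0.065 to 0.11 for Nfkbia and -0.0024 to 0.017 for Tnf in SNX rats, from -0.21 to 0.011 for Nfkbia and -0.0011 to 0.051 for Tnf in sham rats, and from -0.094 to 0.025 for Nfkbia over all rats. Background correction and array batches could not be varied on a normalized table. Dim probe sets (Tnf, Bcl3 on some arrays, and Relb close above the array medians) limit what these arrays can show. Irak2, Ptgs2 and Nfkbiz were also near the array medians in some groups.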
